A study of Homo sapiens with 5 samples.

Results

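The 42 genes described here carry out DNA replication or accompany S phase, and they were taken by gene symbol from the 36601 gene rows of the count matrix. They were grouped by role into 10 genes of the replicative helicase and its loading, 11 of strand synthesis and the replication fork, 3 of nucleotide supply, 6 of repair, 8 of chromatin and histone supply, and 4 regulators of the cell cycle. The nuclei came from the human lung adenocarcinoma lines A549, H1975, H2228, H838 and HCC827, which were grown apart until nearly confluent, frozen, mixed, and prepared as nuclei for the 10× Multiome assay. In this assay transcripts and transposase-accessible DNA (ATAC) of the same nucleus carry a shared barcode. The droplets were divided into an 80% and a 20% portion, from which an RNA library and an ATAC library were each made. A long-read library of the 20% portion was not used here. No line was treated, and the lines carry no labels in the matrices used here.

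Before S phase, the origin recognition complex, CDC6 and CDT1 load rings of the MCM2 to MCM7 proteins onto DNA, and CDC45 and the GINS complex later join the ring to form the active helicase. DNA polymerase alpha with its primase starts the new strands, replication factor C loads the sliding clamp PCNA, and ribonucleotide reductase and thymidylate synthase supply the building blocks. Many of these genes are targets of the E2F transcription factors, so their RNA is known to rise around the entry into S phase. Lung adenocarcinoma lines in culture hold cycling cells in all phases, and cells at high density can leave the cycle.

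RefSeq promoter windows of 300 bases (GRCh38.p14, 250 before and 50 after the gene start) were found for 33 of the 42 genes, in 46 windows. The E2F-type words searched were TTCCCGC on either strand, and likewise the word TTGGCGC, the word TTCGCGC and the word TTGCCGC, which can overlap each other. At least 1 of them was in the windows of 28 of the 33 genes (84.8%), against 15.3% of 27305 genes with a window and 26.4% of 8326 such genes with a mean of at least 10 CPM here (counts scaled to 1000000 per cluster). By window the counts were 32 of 46, against 13.0% of all 35116 windows. The word CCAAT was in the windows of 24 of the 33 genes (72.7%), against 39.7% of all genes with a window and 44.2% of the 8326. A match is a run of letters and was not tested for binding.

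The matches nearest to the gene start are shown for the genes whose RNA turned out to differ most or least between nuclei with many and few helicase transcripts, and for UHRF1. Each is given in capitals with 11 bases on either side, on the strand of its gene, so that a match on the opposite strand reads as its reverse complement. Of the others among these genes, NASP had no such word in its window, and CCNE2, E2F8, ATAD2 and RPA2 had no window in the table.
EXO1, chr1:241848198-241848226, plus strand: aaggtcagcctTTCGCGCgctgtgtaggc
DTL, chr1:212035730-212035758, plus strand: gtgacgtcagtTTGGCGCggagtttggcg
CLSPN, chr1:35769966-35769994, minus strand: actctggctggGCGGGAAagcaagaacag
BRIP1, chr17:61863509-61863537, minus strand: gggggcgggagGCGGGAAttcgtctcggg
BLM, chr15:90717338-90717366, plus strand: gcaagcttccgGCGGGAAgtgagccaggg
UHRF1, chr19:4909476-4909504, plus strand: gccgagttttcGCGGGAAaaaaatcagag
USP1, chr1:62437044-62437072, plus strand: ctgaggaaaacGCGCCAAgttcccctcgg
TIPIN, chr15:66356730-66356758, minus strand: gcacggatttgGCGCCAAacgctgcgggc

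The first base of the match lay 6 bases into the gene for EXO1, 3 for BRIP1, 4 for BLM and 7 for USP1, counting the start as base 1. It lay 7 bases before the start for DTL, 5 for CLSPN, 14 for UHRF1 and 62 for TIPIN. The stretches farther upstream are shown for BRIP1 and UHRF1, the members whose RNA differed most across clusters, and for CLSPN, as far as no annotated GENCODE exon covers them. Capitals mark the E2F-type words and CCAAT or its reverse complement ATTGG.
BRIP1, chr17:61863560-61863778, minus strand: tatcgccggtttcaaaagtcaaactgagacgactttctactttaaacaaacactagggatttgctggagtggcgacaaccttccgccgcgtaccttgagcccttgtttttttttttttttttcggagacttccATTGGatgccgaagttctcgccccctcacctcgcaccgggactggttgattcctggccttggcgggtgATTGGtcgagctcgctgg
UHRF1, chr19:4909251-4909429, plus strand: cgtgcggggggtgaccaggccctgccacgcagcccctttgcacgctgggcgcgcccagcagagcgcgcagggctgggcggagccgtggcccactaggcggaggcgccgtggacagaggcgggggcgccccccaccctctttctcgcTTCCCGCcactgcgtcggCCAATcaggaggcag
CLSPN, chr1:35769979-35770228, minus strand: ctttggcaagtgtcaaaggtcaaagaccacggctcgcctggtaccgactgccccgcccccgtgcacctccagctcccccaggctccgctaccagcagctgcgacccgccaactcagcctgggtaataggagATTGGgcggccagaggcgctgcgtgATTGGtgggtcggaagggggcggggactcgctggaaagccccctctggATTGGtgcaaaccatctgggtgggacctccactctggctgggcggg
The BRIP1 stretch held CCAAT 2 times and the CLSPN stretch 3 times, all in the reverse orientation. UHRF1 held 1 E2F-type word with 1 CCAAT close behind it.

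The 80% portion held 6557 barcodes with 95455518 RNA UMIs, a median of 13306 UMIs and a median of 8784 ATAC counts per nucleus. The 20% portion held 1286 barcodes with a median of 10540.5 UMIs, and 159 barcodes were called in both portions. With 1 library per portion no difference carries a test, nuclei are not replicates, and every interval is an exact 95% interval that covers counting error only. RNA clusters of the 80% nuclei stand in for the lines, were found without the 42 genes or any gene list used below, and were not matched to lines by name. Cluster 0 (2480 nuclei) was led by PPP2R2B, cluster 1 (1458) by IGSF11, cluster 2 (1452) by AC069277.1 and cluster 3 (833) by AC073365.1. For cluster 4 (334 nuclei) EGFR is named, with 7117 CPM against at most 462 elsewhere, and it was chosen after its values were seen. The epithelial keratin KRT8 was present in every cluster, from 512 to 2846 CPM, and the epithelial adhesion gene EPCAM from 23.8 to 748 CPM, while PTPRC, which marks blood cells, was at most 0.733 CPM. The endothelial gene PECAM1 was at most 8.82 CPM, and the fibroblast collagen gene COL1A2 was at 34.0 CPM in cluster 3 and at most 1.23 CPM elsewhere. Of the 833 nuclei of cluster 3, 426 fell in one ATAC cluster and 347 in another, so it may hold more than 1 line. Scrublet called 5.87% of the 80% barcodes doublets, from 0.551% in cluster 2 to 8.88% in cluster 3, and these were kept for the main values.

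The 42 genes held 0.313% of all UMIs of the 80% portion (95% interval 0.311 to 0.314), or 298386 UMIs. Their share was 0.322% in cluster 0, 0.323% in cluster 1, 0.229% in cluster 2, 0.376% in cluster 3 and 0.338% in cluster 4. Cluster 2 stood below the other clusters, and cluster 3 had 1.64 times its share (1.62 to 1.66). In the 20% portion, whose nuclei come from the same pool of droplets, the shares were 0.328%, 0.320%, 0.229%, 0.393% and 0.296%, and the same pair of clusters differed by 1.72 times (1.66 to 1.77). With cluster 3 divided by these ATAC clusters and its remaining nuclei left out, its groups of 426 and 347 nuclei had 0.405% and 0.344%. Fewer replicating nuclei and less RNA per replicating nucleus can give the same pooled share, and which of them holds here was not tested.

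Nuclei were also compared one by one after thinning to 5000 UMIs each, which left out 101 nuclei with fewer UMIs. A nucleus of the 80% portion then held a median of 12 UMIs of the 42 genes, with quartiles of 6 and 23 and a highest value of 56. The variance was 7.79 times the mean, where evenly mixed transcripts would give about 1. By cluster the medians were 12, 14, 7, 17 and 16 UMIs for clusters 0 to 4. At least 25 such UMIs were present in 22.0% of the nuclei of cluster 0 (20.4 to 23.7), 23.3% of cluster 1 (21.1 to 25.5), 12.2% of cluster 2 (10.6 to 14.0), 32.03% of cluster 3 (28.8 to 35.3) and 22.8% of cluster 4 (18.4 to 27.8). These intervals cover only the counting of nuclei within 1 library and do not treat nuclei as replicates of a line. Cluster 2 thus had the smallest share of nuclei with at least 25 such UMIs. Fewer replicating nuclei and less RNA in each would both lower this share, so it cannot tell them apart. The highest nucleus, a value that depends on the number of nuclei, had 53, 50, 51, 56 and 46 UMIs in clusters 0 to 4. In the 20% portion the same shares were 21.5%, 21.1%, 11.3%, 31.7% and 14.0%, the last over 50 nuclei.

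**Figure D1:**
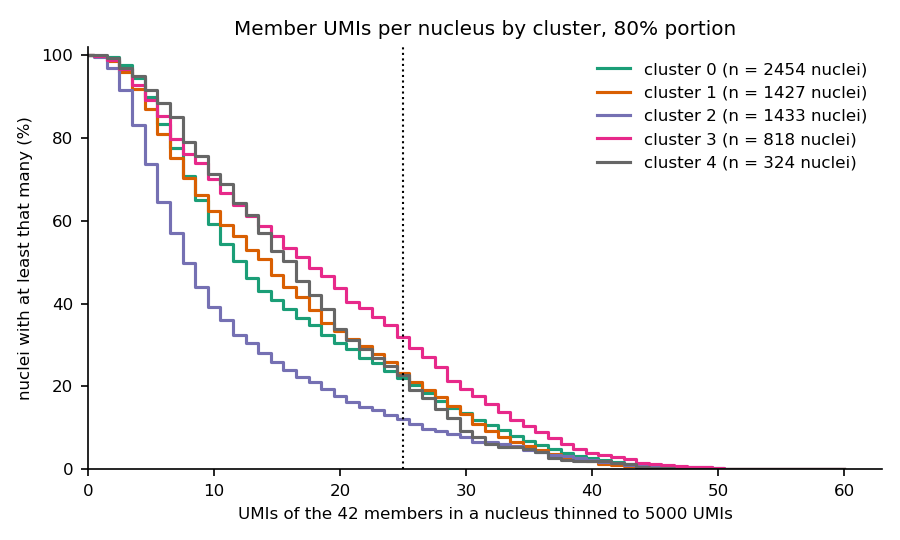
UMIs of the 42 genes in a nucleus thinned to 5000 UMIs (horizontal axis) against the percent of the nuclei of a cluster with at least that many (vertical axis), for the 5 RNA clusters of the 80% portion. The dotted line marks 25 UMIs, which 12.2% of the nuclei of cluster 2 and 32.03% of cluster 3 reached.

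Gene by gene, all 42 members passed the filter of a mean of 10 CPM over clusters. For 22 of them the highest cluster was at least 2-fold above the lowest, while 58.5% of the 10571 genes that passed the filter did so, and the median ratio was 2.08 for the members and 2.20 for all these genes. The members' count was near this background. Of the 42, 25 were past 2-fold in the 20% portion (background 64.3%), and 20 were past it in both portions. The direction was less even, since 30 of the 42 were lowest in cluster 2, against 28% of all genes tested, and 17 were highest in cluster 3, against 18.5%. In the gene lists described below, 35 of 54 G2/M genes and 26 of 47 further replication genes were also lowest in cluster 2. Of 18 genes that control entry into S phase, 5 were lowest there. At least 1.5-fold below the mean of the other clusters were 19 members in cluster 2 (background 26%) and 0 in cluster 3 (16.6%), while 9 were at least 1.5-fold above it in cluster 3 (11.7%). Lowest in cluster 0 were 7 members (18.6%). MCM6 and RPA2 were the 2 members highest in cluster 2, where 26.3% of all genes tested had their highest value. Members kept their highest cluster between portions in 38 cases and their lowest in 30. In the 20% portion 24 of the 42 were lowest in cluster 2, 11 were lowest in cluster 4, and 17 were highest in cluster 3. Shares over all genes are not given for these counts, nor for the 20 members past 2-fold in both portions.

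**Figure D2:**
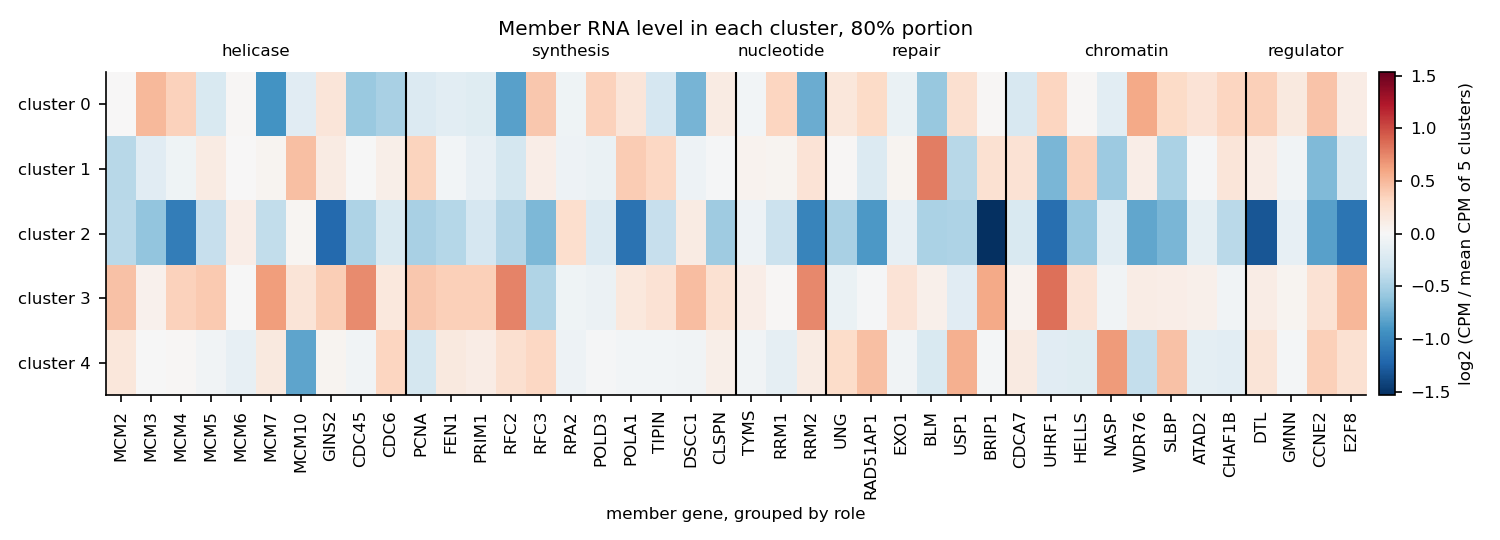
RNA level of each of the 42 genes in the 5 RNA clusters of the 80% portion, as log2 of its CPM over its mean CPM of the clusters (colour), with genes grouped by role. Cluster 2 is the lowest for 30 genes, and MCM7, RFC2 and CDC45 are among the 7 that are lowest in cluster 0.

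Of the 10 helicase genes, 6 were past 2-fold across clusters, in the 80% portion and again in the 20% portion, near the backgrounds of 58.5% and 64.3% that also apply to the roles that follow. GINS2, a subunit of the GINS complex, had 38.7, 37.2, 14.9, 44.1 and 35.1 CPM in clusters 0 to 4. Cluster 2 was low and the others ranged from 35.1 to 44.1 CPM, with a ratio of highest to lowest of 2.97 (2.57 to 3.42) and 3.59 in the 20% portion. Within cluster 3 GINS2 had 54.8 CPM in the ATAC group of 426 nuclei and 29.9 CPM in that of 347. MCM7, a subunit of the ring, had 54.3, 106, 78.6, 160.2 and 113 CPM, so that it was lowest in cluster 0 and not in cluster 2. Its ratio was 2.95 (2.78 to 3.13) and 3.504 in the 20% portion. MCM6, another subunit of the same ring, was nearly level at 70.5, 70.3, 75.1, 69.3 and 63.9 CPM (ratio 1.18, 1.04 to 1.33). Within cluster 3, however, MCM6 had 80.8 CPM in the ATAC group of 426 nuclei and 55.1 CPM in that of 347. MCM5, with 33.2, 42.6, 30.6, 51.5 and 37.7 CPM, had a ratio of 1.69 (1.51 to 1.88). The other helicase genes, MCM2, MCM3, MCM4, MCM10, CDC45 and CDC6, had ratios from 1.77 to 2.68. Subunits of 1 complex thus did not share 1 order of clusters.

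Among the 11 genes of strand synthesis and the fork, 4 were past 2-fold, and the same number was past it in both portions. RFC2, a subunit of the clamp loader, had 21.7, 32.02, 28.5, 65.7 and 45.8 CPM in clusters 0 to 4, a ratio of 3.02 (2.76 to 3.31) between clusters 3 and 0. POLA1, the catalytic subunit of DNA polymerase alpha, had 125, 144, 49.97, 123 and 107 CPM. It was lowest in cluster 2 and ranged from 107 to 144 CPM in the rest, with a ratio of 2.88 (2.67 to 3.11) and 2.92 in the 20% portion. RPA2, a subunit of the protein that covers single-stranded DNA, had 33.4, 33.3, 42.1, 33.4 and 33.3 CPM, which is level except for a higher cluster 2 (ratio 1.27, 1.07 to 1.51). POLD3, a subunit of DNA polymerase delta, had 79.1, 57.5, 53.6, 58.0 and 60.8 CPM and a ratio of 1.48 (1.38 to 1.58). The ratios of PCNA, FEN1, PRIM1, RFC3, TIPIN, DSCC1 and CLSPN lay between 1.53 and 2.29.

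The 3 genes of nucleotide supply differed among themselves. RRM2, the small subunit of ribonucleotide reductase, had 62.9, 123, 53.0, 179 and 117 CPM in clusters 0 to 4 (ratio 3.37, 3.13 to 3.63, and 3.89 in the 20% portion). RRM1, the large subunit of the same enzyme, had 135, 111, 86.1, 109.8 and 98.6 CPM and was highest in cluster 0, where RRM2 was near its lowest value (ratio 1.57, 1.49 to 1.66). TYMS, which is thymidylate synthase, had 86.4, 92.5, 84.5, 96.0 and 86.2 CPM, the smallest ratio of the 42 genes at 1.14 (1.06 to 1.22). In the 20% portion its ratio was 2.19 (1.47 to 3.38), with the lowest value in cluster 4 and its 55 nuclei.

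Of the 6 repair genes, 4 were past 2-fold. BRIP1, a helicase that partners BRCA1, had the largest ratio of all 42 genes, with 101, 118, 34.7, 149.97 and 98.3 CPM in clusters 0 to 4. Cluster 2 was low by 4.32 times (3.96 to 4.72) against cluster 3, and by 4.43 times in the 20% portion. BLM, another DNA helicase, had 18.8, 48.5, 20.1, 29.7 and 23.9 CPM and was highest in cluster 1 (ratio 2.58, 2.33 to 2.86). EXO1, an exonuclease of mismatch repair, was nearly level at 35.9, 39.7, 35.2, 44.6 and 36.9 CPM (ratio 1.27, 1.14 to 1.41). UNG, the glycosylase that removes uracil from DNA, had 37.9, 33.9, 23.8, 31.3 and 40.6 CPM (ratio 1.70, 1.44 to 2.02). Within cluster 3 UNG had 38.8 CPM in the ATAC group of 426 nuclei and 20.9 CPM in that of 347, which is below cluster 2. The other repair genes had ratios of 2.03 and 2.52, each highest in cluster 4.

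Of the 8 genes of chromatin and histone supply, 4 were past 2-fold. UHRF1, which brings the maintenance methyltransferase to newly copied DNA, had 87.8, 43.2, 31.3, 125 and 62.3 CPM in clusters 0 to 4. Cluster 3 was above cluster 2 by 3.99 times (3.64 to 4.39), and in the 20% portion the ratio was 3.32, with cluster 1 lowest. WDR76 had 47.1, 34.0, 18.3, 34.1 and 24.5 CPM (ratio 2.58, 2.30 to 2.90). CDCA7, the partner of the chromatin remodeller HELLS, had 38.1, 53.0, 38.7, 47.2 and 49.7 CPM (ratio 1.39, 1.28 to 1.52). ATAD2, a bromodomain ATPase, had 166, 141, 129, 151 and 129 CPM (ratio 1.29, 1.23 to 1.35). The histone chaperone NASP, named after its values were seen, had 439 CPM in cluster 4 and from 191 to 269 CPM elsewhere. HELLS, SLBP and CHAF1B had ratios from 1.68 to 2.22.

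Of the 4 regulators, 3 were past 2-fold in both portions. DTL, the substrate receptor through which CDT1 is degraded in S phase, had 78.8, 66.2, 24.5, 66.3 and 70.0 CPM in clusters 0 to 4. The clusters other than cluster 2 ranged from 66.2 to 78.8 CPM, and the ratio was 3.21 (2.92 to 3.55), with 3.20 in the 20% portion. Within cluster 3 DTL had 79.5 CPM in the ATAC group of 426 nuclei and 48.3 CPM in that of 347. E2F8, a repressor of the E2F family, had 15.8, 12.5, 6.70, 20.7 and 17.2 CPM (ratio 3.09, 2.51 to 3.84, and 2.01 in the 20% portion, with an interval from 0.898 to 4.18). CCNE2, which is cyclin E2, had 32.3, 14.8, 13.3, 27.6 and 30.6 CPM, low in clusters 1 and 2 (ratio 2.42, 2.11 to 2.78). GMNN, which encodes geminin, the inhibitor of CDT1, had 87.0, 75.6, 71.9, 81.1 and 76.9 CPM (ratio 1.21, 1.14 to 1.29).

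To see whether the 42 genes vary together from nucleus to nucleus, the thinned nuclei of each cluster were ranked by the summed UMIs of the 10 helicase genes and divided into a lower, a middle and an upper tier of equal size. The helicase genes set this score, so their own ratios are no result. The score had a median of 0 UMIs in the 2150 nuclei of the lower tier, 2 in the middle tier and 6 in the upper tier of 2150. All 32 other members were at least 1.5-fold higher in the upper tier than in the lower, against a background of 3.94% of 10586 genes outside the score. Their median ratio was 3.21, from 1.82 to 7.61, and the median over all these genes was 0.981. Each of the 32 rose from the lower to the middle to the upper tier, and each was higher in the upper tier within all 5 clusters. Shares over all genes are not given for the rise over the tiers or for the clusters. The 20% portion had 31 of 32 past 1.5-fold (background 6.52%), with a median of 2.93. Among the 50 genes with the highest ratios of the 10586, 14 were members outside the score and 11 came from the gene lists described below.

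The 8 members with the largest ratios were 3 repair genes, 3 regulators, 1 gene of strand synthesis and the fork, and 1 chromatin gene. EXO1 had 9.49, 24.0 and 72.2 CPM in the lower, middle and upper tier, a ratio of 7.61 (6.18 to 9.45) and of 14.0 in the 20% portion (7.39 to 29.8). EXO1 thus had the largest ratio between tiers of the 32 members outside the score, although it was among the most level across clusters of the 80% portion. In the 20% portion no repair gene had a ratio across clusters below 1.69. DTL had 18.9, 45.2 and 119 CPM (ratio 6.30, 5.43 to 7.34, and 7.0 in the 20% portion). CCNE2 had 7.53, 17.0 and 41.3 CPM (ratio 5.48, 4.32 to 7.04). CLSPN, the adaptor that passes the checkpoint signal from stalled forks to CHK1, had 38.9, 82.5 and 209.6 CPM (ratio 5.39, 4.85 to 6.00, and 4.57 in the 20% portion). BRIP1 had 32.3, 72.8 and 168 CPM (ratio 5.22, 4.65 to 5.87, and 5.15 in the 20% portion). BLM, E2F8 and ATAD2 followed with ratios of 4.25, 4.17 and 4.11. For ATAD2 this was 59.5, 115 and 244 CPM, again in a gene with a small ratio across the 5 clusters. Within cluster 3, however, ATAD2 had 197 CPM in the ATAC group of 426 nuclei and 87.4 CPM in that of 347.

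The smallest ratios were those of a histone chaperone, a deubiquitinase and genes of the fork. NASP had 179, 230.2 and 325 CPM in the 3 tiers, a ratio of 1.82 (1.72 to 1.92) and of 1.64 in the 20% portion. RPA2 had 24.0, 31.4 and 43.7 CPM (ratio 1.82, 1.56 to 2.13, and 2.48 in the 20% portion). TIPIN, which protects the fork together with TIMELESS, had 23.3, 27.3 and 45.0 CPM (ratio 1.94, 1.66 to 2.26). It was the member that missed 1.5-fold in the 20% portion, at 1.30 (0.897 to 1.90). USP1, the deubiquitinase of PCNA and FANCD2, had 40.9, 53.3 and 80.1 CPM (ratio 1.96, 1.74 to 2.20). By role the median ratios were 4.82 for the regulators, 3.91 for repair, 3.22 for chromatin, 2.80 for nucleotide supply and 2.65 for strand synthesis.

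**Figure D3:**
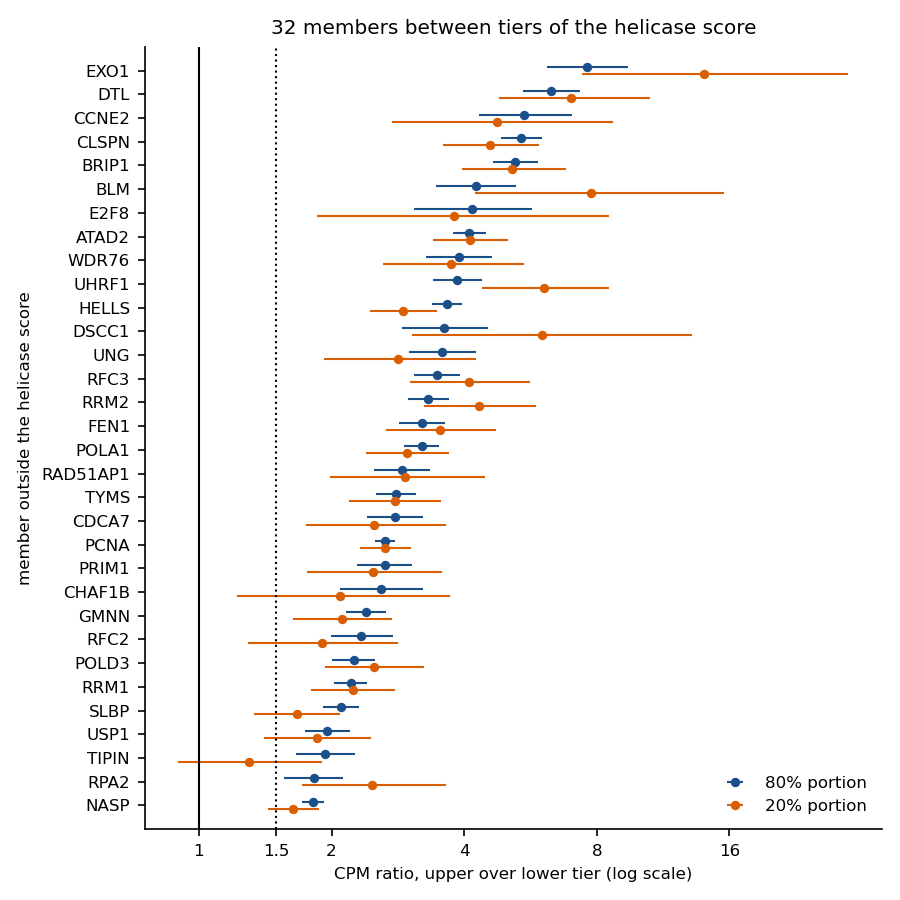
Ratio of CPM in the upper to the lower tier of nuclei by helicase score (horizontal log axis) for the 32 members outside the score, ordered by the 80% portion, with exact 95% intervals for counting error (bars). In the 80% portion (blue) all 32 lie to the right of the dotted line at 1.5, from NASP at 1.82 to EXO1 at 7.61, and in the 20% portion (orange) TIPIN lies below it at 1.30.

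Ranking by the 11 genes of strand synthesis instead gave the same picture. All 31 members outside that score were at least 1.5-fold higher in the upper tier (background 4.75%), with a median of 3.603, and the 10 helicase genes had a median of 3.57. Nuclei of the lower, middle and upper tier by helicase score had medians of 12899.5, 13482 and 13911.5 UMIs before thinning, of 8578, 8798.5 and 9217.5 ATAC counts, and 4.70%, 7.42% and 5.67% of doublet calls. The values at equal depth are those given, and without doublet calls 32 of 32 members passed with a median of 3.28.

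Within clusters the 32 members outside the score summed to 1390 CPM in the lower, 2039 in the middle and 3996 in the upper tier of cluster 0. Cluster 1 had 1309, 2357 and 3956 CPM, cluster 3 had 1515, 2827 and 4380 CPM, and cluster 4 had 1600.0, 2539 and 3861 CPM. Cluster 2 was lower at each step, with 966, 1285 and 3195 CPM. In absolute CPM the middle tier of each of the 5 clusters was nearer to the lower than to the upper tier. This did not hold for cluster 3 of the 20% portion, with 1396, 3167 and 3915 CPM. By ratio, the middle tier of the 80% portion was nearer to the lower tier only in clusters 0 and 2. The upper tiers of clusters 2 and 3 differed less in relative terms than their middle tiers did. Tiers are ranks within a cluster, so the same tier does not hold nuclei of equal score. The middle tier held scores of 1 to 2 UMIs in cluster 2 and of 2 to 5 in cluster 3. The upper tier began at 2 UMIs in cluster 2 and at 5 in cluster 3.

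**Figure D4:**
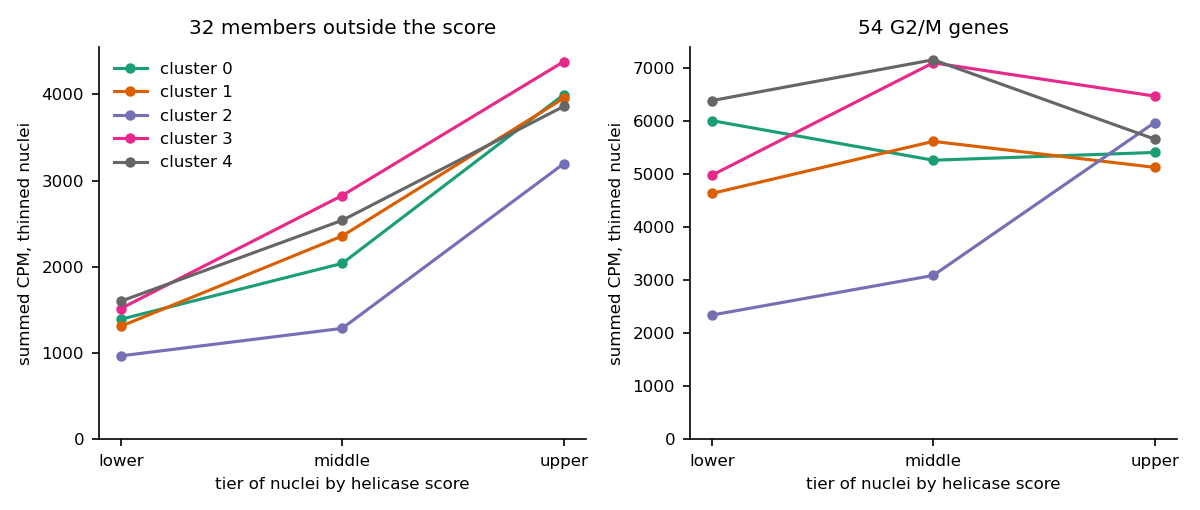
Summed CPM of the 32 members outside the helicase score (left) and of the 54 G2/M genes (right) in the lower, middle and upper tier of nuclei, 1 line per RNA cluster of the 80% portion. Members rise in every cluster, up to 4380 CPM in cluster 3, and in cluster 2 G2/M genes go from 2339 to 5971 CPM.

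Many other genes of the same pathway were also higher in the upper tier. Of 49 further replication genes, 47 passed the filter, and 37 of these were at least 1.5-fold higher in the upper tier by helicase score, with a median ratio of 2.42. Among the largest ratios in this list were those of the origin recognition gene ORC1 with 4.25 (3.28 to 5.56) and of CHAF1A, the large subunit of chromatin assembly factor 1, with 4.21 (3.67 to 4.83). ORC2 and ORC4, other subunits of the origin recognition complex, had ratios of 0.961 and 0.869. Of 19 genes that control entry into S phase, 17 passed the filter and 7 were past 1.5-fold, with a median of 1.39. Here E2F1 had 8.0, 19.4 and 58.8 CPM (ratio 7.35, 5.86 to 9.32), MYBL2 a ratio of 4.69 (3.89 to 5.69) and CDK2 one of 2.61 (2.06 to 3.34). The cell cycle inhibitor CDKN1B had 31.3, 26.6 and 24.6 CPM (ratio 0.786, 0.666 to 0.926), and RBL2, a pocket protein of resting cells, had 56.9, 45.9 and 41.7 CPM (ratio 0.732, 0.647 to 0.828). CDKN1B, RBL2, ORC2 and ORC4 were named after their values were seen.

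Genes of the later G2 and M phases moved less. Of 54 such genes, 11 were at least 1.5-fold higher and 2 at least 1.5-fold lower in the upper tier, against 3.94% and 1.74% of all genes, with a median ratio of 1.17. In the 20% portion 21 of the 54 were at least 1.5-fold higher, with a median of 1.36. The mitotic kinesin KIF11 had a ratio of 1.95 (1.70 to 2.25), UBE2C of the anaphase machinery 1.74 (1.59 to 1.91) and the mitotic kinase CDK1 1.72 (1.55 to 1.91). GAS2L3 had 0.643 (0.530 to 0.778) and the mitotic kinase NEK2 0.663 (0.559 to 0.785). Under the score of the strand synthesis genes 27 of the 54 passed 1.5-fold, so this count differed with the portion and with the genes that rank the nuclei. Their summed level was 6008, 5260 and 5407 CPM in the lower, middle and upper tier of cluster 0, highest in the lower tier, but 2339, 3087 and 5971 CPM in cluster 2. The lower tier of cluster 2 thus had fewer UMIs of S-phase and of G2/M genes than that of any other cluster, where the G2/M sum was between 4634 and 6385 CPM. In the 20% portion the lower tier of cluster 2 had 2557 CPM and those of the other clusters from 3263 to 5562 CPM. Cluster 0 of that portion had 5562, 4550 and 5668 CPM in the 3 tiers, so its upper tier was the highest and the order differed between portions.

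Outside the members, the 10 genes with the highest ratios included E2F1, FAM111B, TCF19, ZNF367, POLQ, MIR924HG, MYBL2, XRCC2 and CDCA5, with ratios from 7.35 down to 4.36. FAM111B, which was in no list, had 13.9, 34.5 and 95.4 CPM (ratio 6.89, 5.79 to 8.23, and 5.09 in the 20% portion). POLQ, which encodes DNA polymerase theta of an end-joining repair pathway, had 18.05, 39.98 and 95.9 CPM (ratio 5.31, 4.55 to 6.23). The noncoding gene MIR924HG had 51.2, 97.8 and 255 CPM (ratio 4.98, 4.54 to 5.47), and its ratio was above 3 in each of the 5 clusters and 4.64 in the 20% portion.

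Accessibility at a gene start was taken as the ATAC counts in peaks within 1000 bp of the start interval that the feature table gives, scaled to 1000000 ATAC counts of the same nuclei (ATAC CPM). All 42 members had such a peak in both portions, and 14 shared it with the start of another gene. Among the genes named below for accessibility, these were MCM2, MCM7, FEN1, TYMS, DTL, CCNE2, BLM and ATAD2. Counts at their starts are therefore not of these genes alone. Across clusters 13 of the 42 were at least 2-fold apart, against 48.8% of 15926 gene starts, with a median ratio of 1.73 against 1.98. The 20% portion had 15 past 2-fold (background 61.2%). The highest and lowest clusters often differed from those of the RNA, as they also did for genes in general. Accessibility was lowest in cluster 3 for 17 members (background 30.5%) and in cluster 2 for 5 (20.5%), while RNA was lowest in cluster 2 for 30. RNA and accessibility were highest in the same cluster for 19 members, against 49.7% of 9776 genes tested for both, and lowest in the same cluster for 13, against 45.5%. The count for the highest cluster was near its background, and that for the lowest cluster was below it. Summed over the members, the start peaks held 0.185%, 0.229%, 0.204%, 0.181% and 0.222% of the ATAC counts of clusters 0 to 4.

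The largest ratio was that of RPA2 (chr1:27914513-27914746, GRCh38, start interval), with 42.7, 41.2, 74.1, 35.0 and 18.5 ATAC CPM in clusters 0 to 4. Cluster 2 was highest for its accessibility, as it was for its RNA, and the ratio was 4.002 (3.15 to 5.16). MCM10, which helps to start the helicase, had 36.4, 51.9, 61.1, 33.3 and 18.8 ATAC CPM (ratio 3.26, 2.56 to 4.20), and cluster 4 was the lowest for its accessibility and its RNA. ATAD2 had 136, 152, 158, 129 and 377 ATAC CPM (ratio 2.93, 2.71 to 3.16), while its RNA in cluster 4 was among its lowest values. Its start interval spans 19904 bp and takes in 3 peaks. The smallest ratios were those of FEN1, EXO1 and MCM2, with 1.35, 1.35 and 1.38.

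For 3 further genes, named after their values were seen, RNA and accessibility can be set side by side. MCM7 had 51.4 ATAC CPM in cluster 0, where its RNA was lowest, and from 85.2 to 121 elsewhere. NASP had 119 ATAC CPM in cluster 4, where its RNA was highest, and from 50.3 to 69.3 elsewhere. RRM2 had 51.9 ATAC CPM in cluster 0 and from 87.1 to 139 elsewhere, while its RNA was lowest in cluster 2. Whole chromosomes also differed between clusters, with median accessibility at the 728 gene starts of chromosome 7, where MCM7 and RFC2 lie, from 0.820 in cluster 2 to 1.15 in cluster 3, relative to the mean of the clusters. Relative to the median of their own chromosome, 7 members were past 2-fold in accessibility (background 37.6%) and 19 in RNA (52.2%). The part of chromosome number in these ratios was not tested.

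Between the tiers of nuclei, accessibility differed far less than RNA. Of the 42 members 0 were at least 1.5-fold higher in the upper tier, against a background of 0.069% of 15952 gene starts, and the median ratio was 1.07, from 0.914 to 1.38, with 0.989 over all gene starts. The interval of the ratio lay above 1 for 16 members, against 9.92% of gene starts, and below 1 for 1, against 12.9%. This one was MCM7 with 0.920 (0.858 to 0.987), and with 1.01 (0.878 to 1.17) in the 20% portion. The summed share of the members' start peaks was 0.191% of ATAC counts in the lower tier (0.189 to 0.193), 0.196% in the middle tier and 0.204% in the upper tier (0.202 to 0.206). TYMS went from 22.2 to 30.6 ATAC CPM (ratio 1.38, 1.22 to 1.56), E2F8 from 31.9 to 42.1 (1.32, 1.19 to 1.46) and RRM2 from 75.6 to 93.5 (1.24, 1.16 to 1.32). Of the 8 members with the largest RNA ratios, EXO1 had an accessibility ratio of 1.03 (0.938 to 1.14) and DTL one of 0.958 (0.893 to 1.03). CCNE2 had 1.21 (1.11 to 1.31), BLM 1.19 (1.09 to 1.30), CLSPN 1.17 (1.06 to 1.30), BRIP1 1.13 (1.01 to 1.25) and ATAD2 1.02 (0.971 to 1.07). In the 20% portion 2 members, E2F8 and BRIP1, were past 1.5-fold (background 2.16%), and the median was 1.06.

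**Figure D5:**
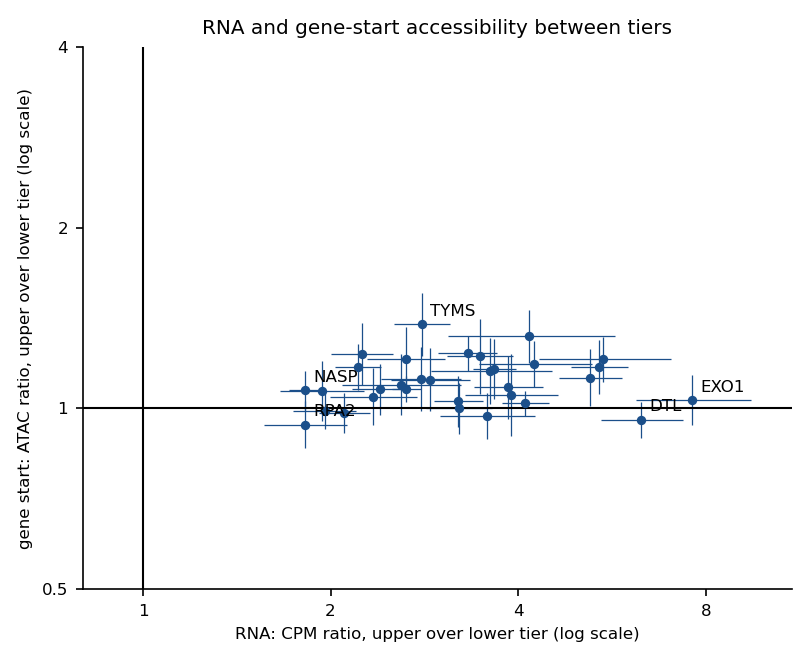
Ratio of RNA CPM (horizontal log axis) and of gene-start ATAC CPM (vertical log axis) between the upper and lower tier of nuclei by helicase score, for the 32 members outside the score in the 80% portion, with exact 95% intervals for counting error (bars). RNA ratios run from 1.82 to 7.61, while accessibility ratios stay near 1, up to 1.38 for TYMS.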

How the data were processed

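RNA and ATAC counts per barcode were deposited by the authors as matrices of raw counts, UMIs per gene and ATAC counts per peak. Per the labels they came from Cell Ranger ARC 2.0.0 on GRCh38, and no source used here says whether ATAC counts are fragments or cut ends. The members and lists were chosen with earlier results of these data known.

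UMIs were log-normalized, and the 2000 most variable genes outside the members and lists were reduced to 30 principal components (scanpy 1.11.5) and clustered by Louvain in Seurat 5.3.0 (20 neighbours, seed 0, lowest resolution giving at least 5 clusters of at least 1% of nuclei). Nuclei of the 20% portion went to the cluster with the most highly correlated profile. Counts were summed per cluster and scaled to 1000000 (CPM), and genes with a mean under 10 CPM were left out of counts over all genes. No barcode was removed. Doublets were called by Scrublet at an expected rate of 0.06 and removed as an alternative. Nuclei were thinned to 5000 UMIs, which left out 101 and 104 nuclei. Free RNA was not removed. A seeded simulation of 1500 nuclei over 10571 genes gave back 100% of 200 genes changed 3-fold, between tiers and across clusters. It also called 1.23% of unchanged genes between tiers and 0.154% across clusters. Its clusters were given, shared 1 base profile, and had a high state about the size of a tier. It was easier than the real data, and recovery of smaller changes was not tested. Genes were named by rank within role or comparison: per role the 2 largest and 2 smallest ratios across clusters, the 3 largest and 3 smallest for accessibility, and the 8 largest and 4 smallest between tiers. One item that the rule named is not reported here.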

Additional observations from a re-analysis of the deposited data

How the results depend on the processing

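The ratio of the members' share, the 3 counts of members past a limit in RNA or accessibility, the count of G2/M genes and the median accessibility ratio between tiers were recomputed under the alternatives, 58 values in all, of which 52 were planned and 6 were chosen after seeing the data (cluster 3 divided, the start peak with the most counts, and accessibility between tiers without shared barcodes). Of these, 49 stayed near the reported value and 9 moved further. Near meant within the counting interval of the reported share ratio, or within 1.5 times the reported count. For the median accessibility ratio it meant no further away than the ends of another interval lie from its middle. That interval was the one of the ratio of the members' summed start-peak counts (1.05 to 1.08). A reversal was defined only for the median accessibility ratio between tiers, as a value below 1, and 0 of its alternatives reversed. The other results had no rule for a reversal. The cause of the shifts was not tested. Counts by highest or lowest cluster and ratios of single genes were not recomputed. The ratio of the members' share between clusters 3 and 2 was 1.70 without doublet calls and 2.36 for the median share per nucleus. Between the highest and the lowest of the ATAC clusters, which are other groups than the RNA clusters, it was 1.77. With cluster 3 divided it was 1.77 between the group of 426 nuclei and cluster 2. At a limit of 1.5-fold 34 of 42 members differed across clusters, where 86.5% of all genes did. The count of 54 G2/M genes past 1.5-fold was 27 under the strand synthesis score and from 8 to 16 under the others. Members past 2-fold in accessibility fell to 7 when nuclei with a count were counted (background 44.7%) and to 7 relative to the chromosome (37.6%). The median accessibility ratio between tiers was 1.11 under the strand synthesis score. Without the 159 shared barcodes 22 of 42 members passed for RNA across clusters (background 58.3%) and 32 of 32 between tiers (3.97%). For accessibility across clusters 12 of 42 passed (48.9%). No paired analysis was possible because each portion gave a single RNA library and a single ATAC library of those used here.

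With 1 library per portion nothing here is replicated beyond the division of one pool of droplets. Clusters were not matched to lines, and cluster 4 of the 20% portion held 55 nuclei. Start intervals of several members are wide, up to 44489 bp for HELLS, and can take in peaks far from the start.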
